A study of Mus musculus with 2 samples.

Results

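The 8 genes described here, Cd80, Cd86, Icosl, Cd274, Pdcd1lg2, Cd40, Cd83 and Cd48, encode surface proteins through which an antigen-presenting cell speaks to T cells, and they were chosen by symbol from the 55536 annotated genes of the tables. They were measured in macrophages differentiated from bone marrow of C57BL/6J mice, which are primary cells and carried no engineered allele by the labels. Both libraries belong to 1 group: the cells were exposed to 100 ng/ml lipid A for 12 h, kept without it for 12 h after a wash, and exposed again to 100 ng/ml lipid A for 75 min. Lipid A is the portion of lipopolysaccharide, from the bacterial outer membrane, to which TLR4 responds. The RNA came from the cytosol, had its ribosomal RNA removed and was sequenced whole, with 64187219 expected counts on annotated genes in replicate 1 and 49429864 in replicate 2. The labels number the libraries as biological replicates but give both the same donor code, and age and sex were not recorded. No untreated, singly treated or nuclear library was analysed here, so the values are levels in 1 fraction of cells in 1 state and measure neither induction nor tolerance.

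A T cell that meets its antigen also reads a second set of signals from the presenting cell. CD80 and CD86 engage CD28, which drives activation, and CTLA-4, which restrains it, and ICOS ligand engages ICOS. PD-L1 and PD-L2 engage PD-1 and restrain the cell. CD40 works in the other direction, since it receives CD40 ligand from the T cell and turns on NF-kB in the macrophage. CD83 stabilises class II molecules and CD86 at the surface, and CD48 is an adhesion partner of CD2 and CD244. In macrophages and dendritic cells, microbial products such as lipopolysaccharide are known to raise several of these proteins.

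Parts of 3 of the genes are shown first because transcripts of these genes differ in whether the stretches are present. Sequences are from the GENCODE M21 transcripts and the mm10 assembly, plus strand, 5′ to 3′. The first is intron 1 of Cd83 (chr13:43785251-43785345, 95 bases), which transcript Cd83-202 keeps and Cd83-201 removes, with capitals marking the stop codon that ends the Cd83-201 reading frame when the intron is kept. The second and the third are exons 6 and 7 of Cd40 (chr2:165066503-165066564, 62 bases, and chr2:165069629-165069715, 87 bases), which are missing from Cd40-203 and Cd40-202 respectively. Exon 7 codes for the stretch of CD40 that crosses the membrane. Its capitals mark 22 codons (192 to 213) of which 16 have T at the second place, as many codons for hydrophobic residues do. The last is the exon of Cd80 (chr16:38479064-38479345, 282 bases) for the constant-type immunoglobulin domain of CD80, which is missing from Cd80-203.
Cd83 intron 1: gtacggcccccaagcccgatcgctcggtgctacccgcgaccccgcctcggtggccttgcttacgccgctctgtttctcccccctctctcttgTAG
Cd40 exon 6: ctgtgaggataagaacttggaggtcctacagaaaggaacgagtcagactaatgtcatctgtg
Cd40 exon 7: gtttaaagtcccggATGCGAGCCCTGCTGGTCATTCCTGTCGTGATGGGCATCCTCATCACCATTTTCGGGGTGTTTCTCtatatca
Cd80 constant-type domain exon: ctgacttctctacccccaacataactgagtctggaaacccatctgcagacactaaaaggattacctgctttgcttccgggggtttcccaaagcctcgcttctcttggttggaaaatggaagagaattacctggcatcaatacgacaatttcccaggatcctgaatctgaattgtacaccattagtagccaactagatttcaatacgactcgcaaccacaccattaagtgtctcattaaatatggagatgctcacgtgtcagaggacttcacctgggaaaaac

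Of the 8 ligand genes 7 were detected, and PD-L1 was the most abundant message among them. Levels are given in TPM, each gene's length-corrected share of a library's transcripts scaled to a fixed total, as mean ± SD (n = 2). Detected means a TPM of 1 or more in each replicate. Levels of at least 100 were called high, 10 to under 100 moderate and 1 to under 10 low, each in both replicates. By this rule Cd274 and Cd83 were high, Cd48, Cd40 and Cd86 were moderate, Icosl and Cd80 were low, and Pdcd1lg2 was not detected. The 87.5% of the 8 genes detected stood beside 16.7% of all annotated genes and 40.0% of protein-coding genes. The median of the 8 was 40.9 in replicate 1 and 27.4 in replicate 2, beside 8.03 and 7.32 over the 8812 detected protein-coding genes. Rescaling TPM to protein-coding genes alone raised Cd274 from 199 and 185 to 666 and 706, so other features held much of the TPM total. Which RNAs these were is not shown here. Levels of genes can therefore be compared with each other but are not shares of messenger RNA. In bulk RNA, fewer cells making a message and less of it per cell cannot be told apart.

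**Figure D1:**
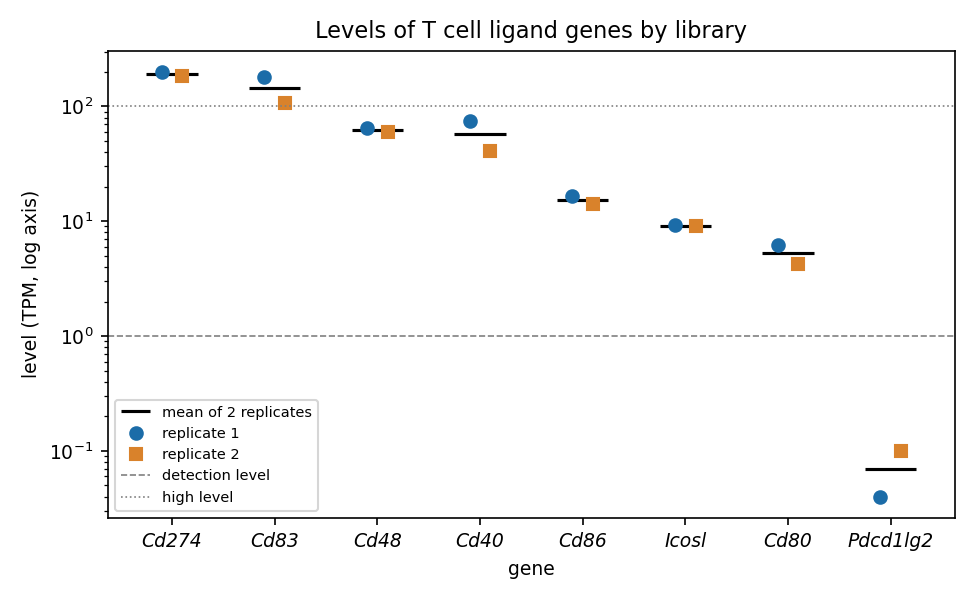
Level of each of the 8 ligand genes (TPM, log axis) in replicate 1 (circles) and replicate 2 (squares), with a bar at their mean and lines at the limits for detected (1) and high (100). Cd274 stood at 199 and 185, Cd40 and Cd48 overlapped, and Pdcd1lg2 lay below the detection line at 0.040 and 0.10.

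The B7 ligands of CD28, CTLA-4 and ICOS were the least abundant detected group. Cd86 (chr16:36603869-36666081, minus strand) stood at 16.6 in replicate 1 and 14.2 in replicate 2, which is 15.4 ± 1.68 (n = 2). Cd80 (chr16:38455561-38496335, plus strand) stood at 6.25 and 4.24, which is 5.245 ± 1.42. The values did not overlap: Cd86 exceeded Cd80 by a factor of 2.65 in replicate 1 and 3.35 in replicate 2. The 2 genes lie 1789479 bases apart on chromosome 16, with 46 genes between them. Icosl (chr10:78069302-78083913, plus strand) stood between them at 9.31 and 9.03, which is 9.17 ± 0.198, and had the smallest SD of the 7 detected ligand genes. Of the detected protein-coding genes, 70.1% lay below Cd86, 55.5% below Icosl and 37.6% below Cd80, so these 3 were ordinary messages by level. Together they held 5.82% and 6.52% of the TPM of the 8 genes in replicates 1 and 2.

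Cd80 was split between transcripts that code for the same protein. Cd80-201 held 50.4% and 50.6% of the gene's TPM in replicates 1 and 2, and Cd80-202 held 46.0% and 40.4%. Both code for 306 codons and differ outside the coding region. Cd80-203, which lacks the 282-base exon printed above and codes for 212 codons, held 3.56% and 9.05%, on 13.2 and 18.3 expected counts with a spread of the estimate of 6.87 and 5.13. It fell outside the rule for named transcripts, 10% of the gene's TPM in both replicates, and was chosen after its values were seen. Cd86 and Icosl each rested on 1 protein-coding transcript: Cd86-201 held 91.7% and 95.4% of Cd86, and Icosl-201 held 92.3% and 93.0% of Icosl.

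The PD-1 ligands stood at opposite ends of the order. Cd274, which encodes PD-L1 (chr19:29367455-29388095, plus strand), stood at 199 and 185, which is 192 ± 10.1 (n = 2), above 97.8% of detected protein-coding genes. Pdcd1lg2, which encodes PD-L2, is the next gene on the same strand (chr19:29410919-29471161), 22823 bases away with 0 genes between them. It stood at 0.040 and 0.10, which is 0.070 ± 0.042. These levels rest on 7 counts in replicate 1 (exact Poisson 95% interval 2.81 to 14.4) and 13 in replicate 2 (6.92 to 22.2), against 76114 and 57944 for Cd274, and the intervals cover counting error only. The ratio of Cd274 to Pdcd1lg2 in TPM was 4986 and 1851, figures as uncertain as those few counts. Cd274 also exceeded the CD28 ligands, by a factor of 12.0 and 13.0 over Cd86 and 31.9 and 43.7 over Cd80.

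Each PD-1 ligand had all of its counts on 1 transcript. Cd274 has 1 annotated transcript, Cd274-201, of 290 codons. Pdcd1lg2 has 2 of 247 codons each, and Pdcd1lg2-201 was given all of its counts, with a spread of the estimate of 2.34 and 3.95. Each gene overlaps an antisense gene, and since the strandedness of the counting is not given in the sources used here, reads of such pairs may not be told apart. AC119228.1, opposite Cd274, held 324 and 650 expected counts, beside the 76114 and 57944 of Cd274. A930007I19Rik, opposite Pdcd1lg2, held 106 and 52, more than Pdcd1lg2 itself, so that its few counts are the more uncertain.

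Cd83 was the second most abundant of the 8 genes, but most of its TPM was given to a transcript that keeps an intron. The gene (chr13:43784775-43803132, plus strand) stood at 180 in replicate 1 and 108 in replicate 2, which is 144 ± 51.3 (n = 2). Both values lay below both values of Cd274 in the alignment-based table. In the read-based table they overlapped, at 100 and 45.1 for Cd83 and 110 and 77.5 for Cd274. Cd83-202, annotated as a retained intron, held 73.2% and 74.0% of the gene's TPM in the alignment-based table and 64.8% and 65.8% in the read-based table. Cd83-201, the protein-coding transcript of 196 codons, held the rest, 26.8% and 26.0% in the alignment-based table. Restricted to protein-coding transcripts, Cd83 stood at 48.3 and 28.0, which is 38.1 ± 14.4, and moved from the second to the fourth place among the 8.

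The reading frame of Cd83-201 cannot run through the kept intron. Read from the Cd83-201 start codon, Cd83-202 meets a TAG after 43 codons, at the last 3 bases of the intron printed above (chr13:43785343-43785345). The intron is 67.4% G and C. The transcripts share 2063 bases. Only the 95 bases of the intron belong to Cd83-202 alone, while 410 bases upstream of its start and 4 at the 3′ end belong to Cd83-201 alone. The estimated split therefore rests on where reads begin at the 5′ end as well as on the intron, and the tables give no junction or intron counts. The spread of the estimated transcript counts was 223 and 171, on 28677 and 14181 counts of Cd83-202.

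Cd40, the receptor for CD40 ligand, was led by a transcript without its membrane exon. The gene (chr2:165055627-165072948, plus strand) stood at 75.2 in replicate 1 and 40.6 in replicate 2, which is 57.9 ± 24.4 (n = 2). Cd40-202, which lacks exon 7 and codes in frame for 260 codons, held 52.8% and 49.9% of the gene's TPM. Cd40-201, the transcript of 289 codons that holds every exon printed above for Cd40, held 19.7% and 21.4%. Cd40-203, without exon 6 and with 203 codons, held 13.8% and 15.0%. Cd40-207, annotated as a target of nonsense-mediated decay, keeps the 101-base intron after exon 7 (chr2:165069716-165069816), stops after 234 codons and held 10.8% and 9.90%.

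The share of Cd40 in transcripts that contain exon 7 is not the share that encodes the membrane stretch. Cd40-201, Cd40-203 and Cd40-207, the named transcripts that contain exon 7, together held 44.3% and 46.3% in the alignment-based table and 43.9% and 40.3% in the read-based table. Cd40-203 reads exon 7 in another frame than Cd40-201, because the 62 bases of exon 6 that it lacks are not a whole number of codons. Without it, Cd40-201 and Cd40-207, which read exon 7 in the frame of Cd40-201, held 30.6% and 31.3% in the alignment-based table and 25.3% and 25.2% in the read-based table. Cd40-202 alone held 45.4% and 40.1% in the read-based table, where it was still the largest single transcript but did not exceed the sum of the 3 that contain exon 7 in replicate 2. Of the 28 whole codons of exon 7, 18 (64.3%) have T at the second place, against 68 of 289 (23.5%) over the whole coding region. The length of the capitalised window was set after the exon had been read, and 3 windows of that length had as many such codons. Cd40-202 has 0 bases that no other transcript contains, and 1294 bases of Cd40-201 are its own, all past the 3′ end of Cd40-202. The split between these transcripts therefore also rests on the 3′ ends, and no counts across the junction that skips exon 7 are in the tables.

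**Figure D2:**
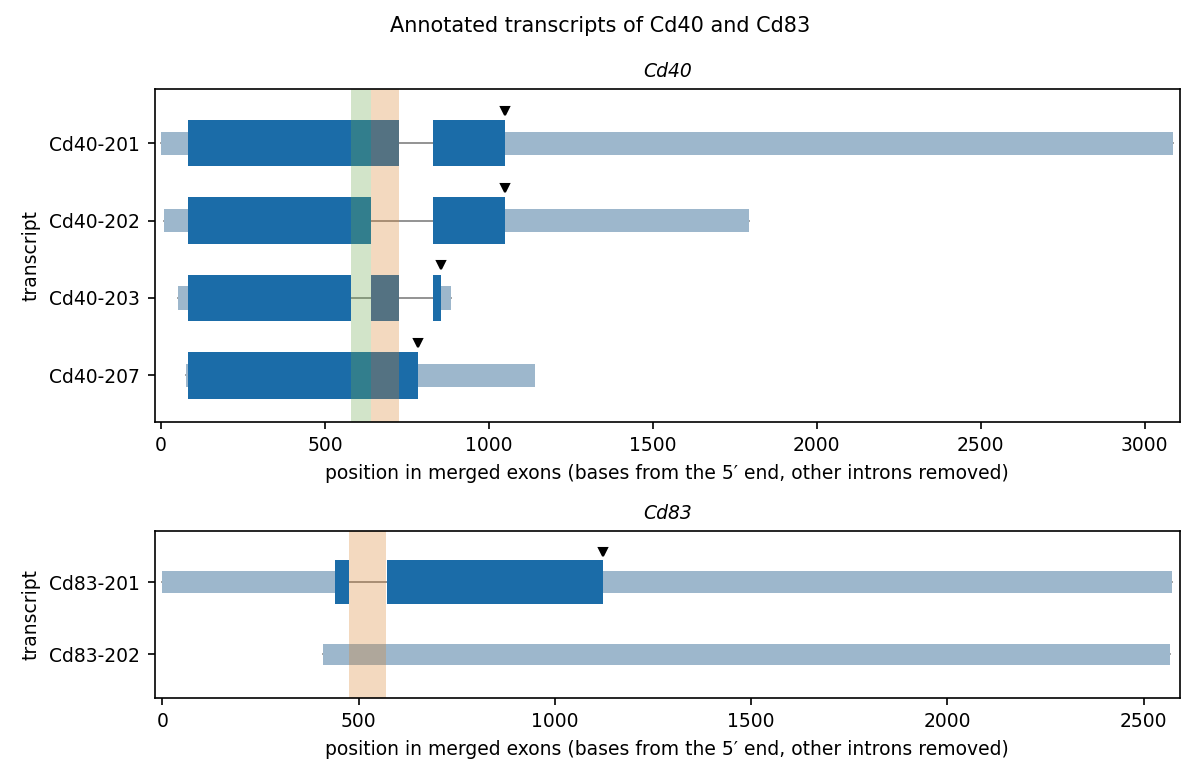
Exons of the named transcripts of Cd40 and Cd83, 5′ to 3′, in bases along the merged exons with all introns removed that no drawn transcript keeps. Tall dark bars are coding, low pale bars are not, triangles mark stop codons, and shading marks Cd40 exon 6 (62 bases) and exon 7 (87 bases) and Cd83 intron 1 (95 bases).

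Cd48 was a single-transcript message at a level like that of Cd40. The gene (chr1:171682009-171705258, plus strand) stood at 65.3 and 60.2, which is 62.8 ± 3.58 (n = 2), and Cd48-202, of 240 codons, held 99.3% and 99.7% of it. It overlaps Gm37010, an unverified gene model on the same strand, which held 12 and 24 counts against 7058 and 5307 for Cd48.

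**Figure D3:**
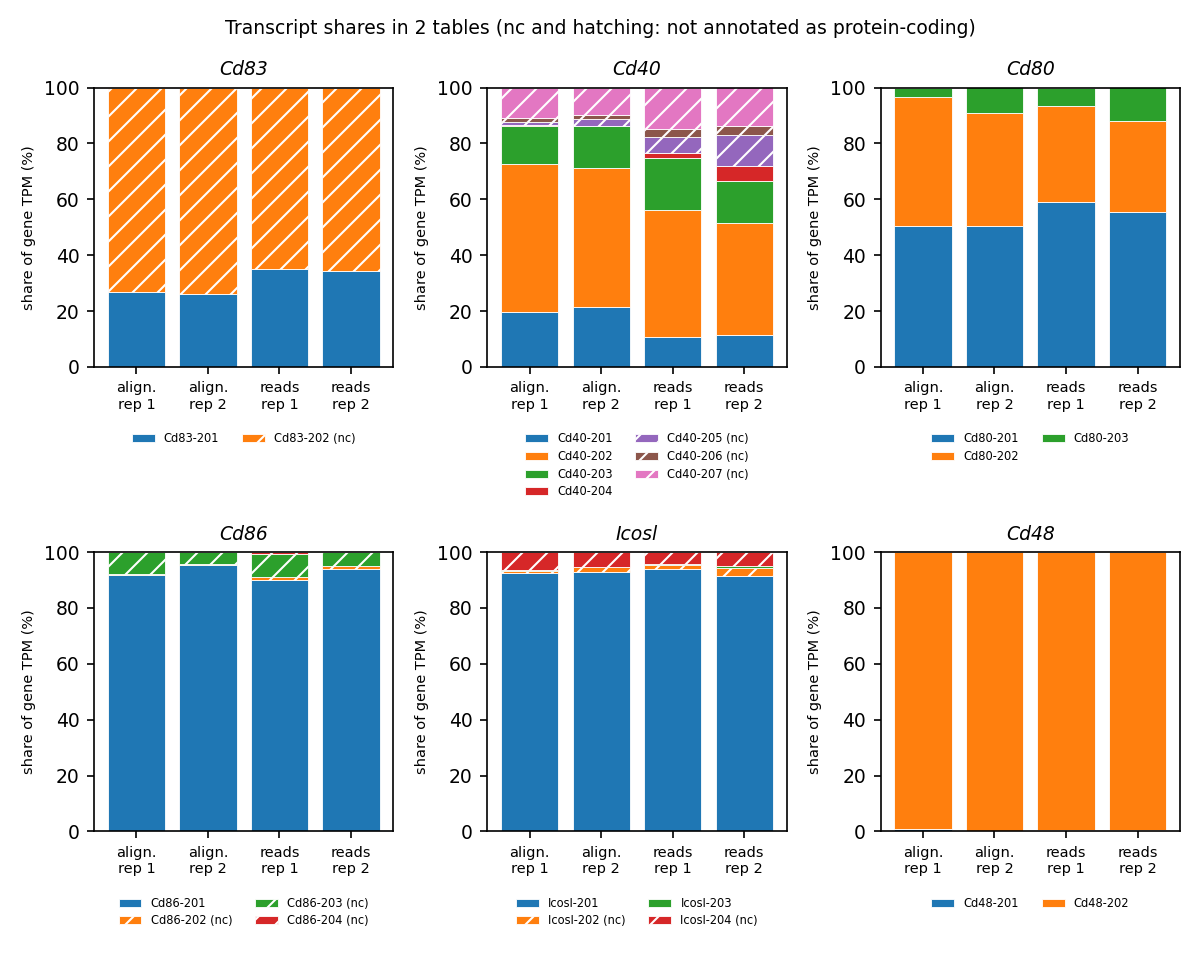
Share of each gene's TPM held by its annotated transcripts (percent, stacked), for replicates 1 and 2 in the alignment-based table (align.) and the read-based table (reads), with hatching for transcripts not annotated as protein-coding. Cd83-202 held 73.2% and 74.0% of Cd83 and Cd40-202 held 52.8% and 49.9% of Cd40 in the alignment-based table.

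Across the 25 transcripts of the 8 genes, 16 are annotated as protein-coding, 4 as retained introns, 2 as targets of nonsense-mediated decay and 3 as processed transcripts. The leading transcript was the same in both replicates and in both tables for 8 of 8 genes. Cd83 was the only one of the 8 whose leading transcript is not annotated as protein-coding. Transcripts annotated as protein-coding held 86.5% and 86.3% of Cd40 and at least 91.7% of each of the other 6 genes in both replicates of the alignment-based table. In the read-based table their share of Cd40 was lower, at 76.6% and 71.9%.

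From the highest mean to the lowest, the order was Cd274, Cd83, Cd48, Cd40, Cd86, Icosl, Cd80 and Pdcd1lg2. In the alignment-based table, replicate values of neighbours did not overlap except for Cd48 and Cd40, whose ratio was 0.869 in replicate 1 and 1.48 in replicate 2. The read-based table separated them less. There Cd274 (110 and 77.5) overlapped Cd83 (100 and 45.1), and Cd83 overlapped Cd40 (53.8 and 23.5). Icosl (5.53 and 4.22) overlapped Cd80 (4.58 and 2.38) in that table too. Of the pairs that did not overlap in the alignment-based table, Cd274 and Cd83 were the closest, at a lowest value of 185 for Cd274 and a highest of 180 for Cd83. Their ratio was 1.11 in replicate 1 and 1.72 in replicate 2. With 2 libraries a side, a two-sided exact permutation test cannot pass the threshold, so no neighbours were tested. By role, the PD-1 ligands held 36.1% and 44.0% of the TPM of the 8 genes, nearly all of it Cd274, and Cd40, Cd83 and Cd48 together held 58.1% and 49.5%.

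Between the replicates, Cd40, Cd83 and Cd80 were each lower in replicate 2, and the other detected genes were nearly level. Counts scaled by TMM, which sets library sizes so that most genes agree, gave a log2 ratio of replicate 2 to replicate 1 with a 95% counting interval. It was -0.80 (-0.84 to -0.75) for Cd40, -0.66 (-0.68 to -0.63) for Cd83 and -0.56 (-0.69 to -0.44) for Cd80. As factors, replicate 1 exceeded replicate 2 by 1.74, 1.58 and 1.48. The ratios of Cd86, Cd48, Cd274 and Icosl were -0.10, -0.03, -0.02 and 0.04. Pdcd1lg2 had a ratio of 1.27 with an interval from -0.16 to 2.84.

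None of the 8 genes was called at 2-fold. A two-sided exact binomial test on rounded expected counts, with Benjamini-Hochberg adjustment over 13298 genes, an adjusted p under 0.05 and at least 2-fold, called 0 of 8 genes, beside 5.53% of all genes. At an unadjusted p under 0.05 and no fold minimum it gave 5 of the 8, beside 60.2% of all genes. With adjustment and no fold minimum it called 4, all lower in replicate 2, beside 56.4% of all genes, 31.1% called lower and 25.3% called higher. These were Cd40 (exact binomial adjusted p = 1.4e-260), Cd83, Cd80 (1.9e-18) and Cd86 (0.012). At 1.5-fold it called Cd40 and Cd83, beside 13.1% of all genes. The test holds counting error only and compares these libraries, not conditions. The spread between these samples may be technical.

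Set against variation beyond counting, the differences were less firm. When genes were assumed to vary between cultures with a coefficient of 0.1, and with no fold minimum, edgeR's exact test called 2 of the 8, Cd40 (adjusted p = 0.0034) and Cd83 (0.024), beside 7.57% of all genes, and gave Cd80 an adjusted p of 0.087. With a coefficient of 0.2 it called 0, beside 1.04% of all genes, and Cd40 had an adjusted p of 0.88. Of the 3553 tested genes with a TPM of 10 or more in both, 3.21% were at least as far apart as Cd40 and 5.49% at least as far as Cd83. The median ratio was -0.07 over the 8 genes, 6 of them lower in replicate 2, -0.04 over all genes tested, 54.3% of them lower, and -0.08 over genes with a TPM of 10 or more.

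**Figure D4:**
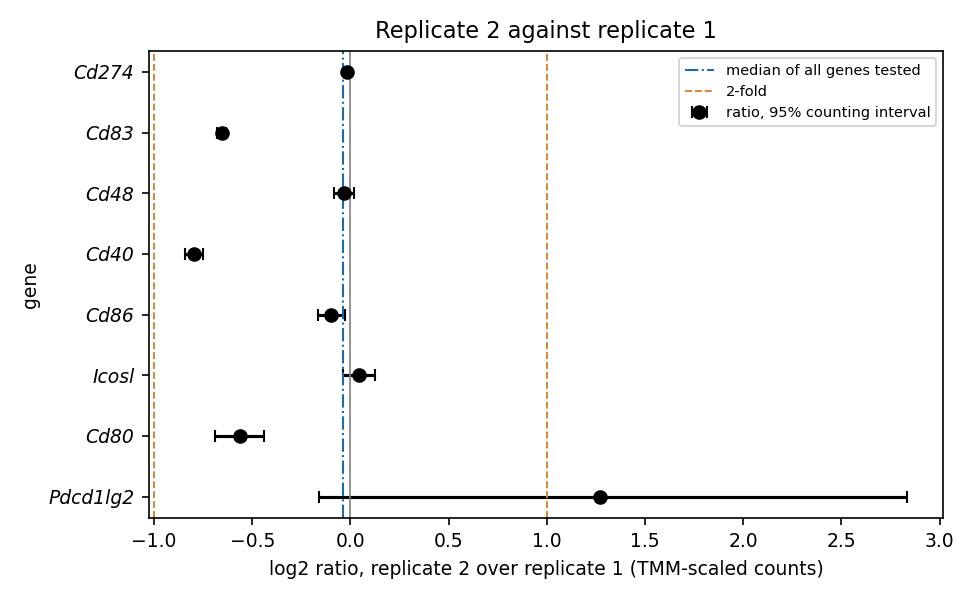
Log2 ratio of replicate 2 to replicate 1 for each ligand gene on TMM-scaled counts (points), with its 95% counting interval (bars), the median of all genes tested (dash-dotted, -0.04) and the 2-fold lines (dashed). Cd40, Cd83 and Cd80 lay at -0.80, -0.66 and -0.56, inside 2-fold, and Pdcd1lg2 had the widest interval, -0.16 to 2.84.

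The named transcripts of Cd83 and Cd40 were lower in replicate 2, as their genes were. For Cd83, both transcripts were lower in replicate 2, with log2 ratios of -0.72 for Cd83-201 and -0.66 for Cd83-202. For Cd40, the ratios were -0.70 for Cd40-201, -0.91 for Cd40-202, -0.72 for Cd40-203 and -0.96 for Cd40-207. Of 20 transcripts tested, 15 were lower in replicate 2, but transcripts of 1 gene share reads, and the share over all transcripts is not given here. At 2-fold the exact binomial test called 2 of the 20 lower and 0 higher. Of all transcripts, 17.9% were called in either direction and 8.48% lower. Those called were Cd86-203, a processed transcript at -1.09 (exact binomial adjusted p = 7.2e-05), and Cd48-201 at -1.31 (0.015). Cd86-203 had 109 and 40.4 expected counts in the alignment-based table and 123 and 53.4 in the read-based table. Cd48-201 had 35.5 and 11.3, with a spread of the estimate of 8.65 and 4.69, and 35.3 and 25.6 in the read-based table. The drop of Cd48-201 was thus smaller in the read-based table. Cd86-203 and Cd48-201 are minor transcripts named after their values were seen. The edgeR test with a coefficient of 0.2 gave them adjusted p-values of 0.21 and 0.32.

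Other ligands that act on T cells were unevenly represented. Of 9 other members of the B7 and butyrophilin families 8 were not detected, and Vsir, which encodes the inhibitory ligand VISTA, was moderate at 28.9 ± 3.50 (n = 2). Cd276, which encodes B7-H3, held 8 and 2 counts, and the median of the list was 0. Of 7 costimulatory ligands of the TNF family 5 were not detected, with a median of 0.415 ± 0.26. The 2 detected were Tnfsf15, low at 7.73 and 5.64, and Tnfsf9, the ligand of 4-1BB, moderate at 263 and 89.4. The replicates of Tnfsf9 lay far apart, with a log2 ratio of -1.48. In that list 4 of 6 tested genes were called lower in replicate 2 by the exact binomial test at 2-fold (Tnfsf9, Tnfsf4, Tnfsf8 and Tnfsf18), and 0 higher, beside 5.53% of all genes called either way.

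The messages high in both replicates among the related lists were all in those of inhibitory, adhesion and SLAM family partners. Tnfsf9 passed the limit in replicate 1 only, and its mean of 176 exceeded those of Icam1, Cd47, Ly9 and Cd84. Of 14 other inhibitory or adhesion ligands 4 were high, 1 moderate, 6 low and 3 not detected. Their median was 5.94 ± 1.15 (n = 2). The highest were Fgl2, an inhibitory fibrinogen-like protein, at 236 ± 92.7, Lgals9, a galectin that binds TIM-3, at 185 ± 5.71, Icam1, the ligand of the integrin LFA-1, at 143 ± 3.60, and Cd47, the ligand of SIRP-alpha, at 126 ± 6.75. Of 12 tested genes in this list, Nectin2 was called higher and Cd24a lower in replicate 2, beside 5.53% of all genes called either way. Of 9 SLAM and CD2 family genes, the family to which Cd48 belongs, 3 were high, 2 moderate, 1 low and 3 not detected. Their median was 17.6 ± 5.48. Slamf7, Ly9 and Cd84, receptors that bind copies of themselves, stood at 254 ± 46.6, 160 ± 17.2 and 137 ± 16.2, all above Cd48. In this family 0 of 8 tested genes were called, beside 5.53% of all genes.

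**Figure D5:**
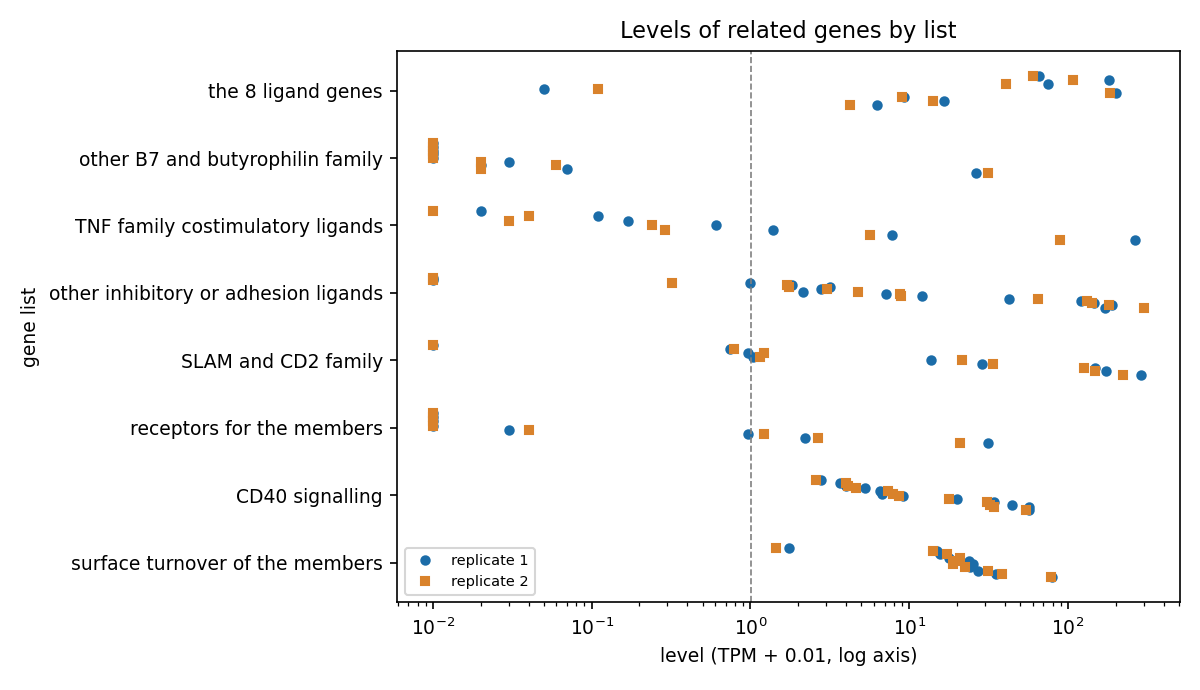
Level in TPM plus an offset of 0.01 (log axis) of the 8 ligand genes and of each related list in replicate 1 (circles) and replicate 2 (squares), with a dashed line at a TPM of 1. All 12 CD40 signalling genes and all 10 surface turnover genes lay above the line, while 8 of 9 other B7 and butyrophilin genes did not.

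The receptors that bind these ligands were mostly at or near 0, and 2 of 8 were detected, Cd28 and, at a low level, Rgmb. Cd28, the receptor for CD80 and CD86, stood at 31.3 and 20.7, which is 26.0 ± 7.45 (n = 2), on 14471 and 7868 counts, above both of its ligands in each replicate. Ctla4, Pdcd1, Cd40lg and Cd2 had 0 counts in both libraries, against a floor of 3 counts that a count of 0 allows, and Icos had 8 in each. Cd244a, a receptor for CD48, stood at 0.95 and 1.20 and Rgmb, which binds PD-L2, at 2.44 ± 0.325. Of the 7 other T cell markers listed, Cd4 was moderate at 16.7 and 14.1, and the other 6 were not detected, with Cd3d, Cd3e and Cd3g at 0 to 3 counts per library. Their part in the Cd28 level was not tested.

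The genes listed for CD40 signalling and for surface turnover were detected throughout. The action of the listed genes on the 8 ligands was not measured. Of 12 CD40 signalling genes 5 were moderate and 7 low, and their median was 8.08 ± 0.209 (n = 2). The highest were Birc3, a ubiquitin ligase, at 55.4 ± 1.51, the adaptors Tank and Traf1 at 45.3 ± 15.9 and 38.4 ± 8.67, and Nfkb2, the precursor of the p52 subunit of NF-kB, at 32.4 ± 2.37. The lowest were Map3k14, the kinase NIK, at 3.83 ± 0.219 and Traf5 at 2.67 ± 0.141. Of 10 genes of surface turnover 9 were moderate and 1 low, and their median was 22.2 ± 2.54. March1, the ubiquitin ligase that removes CD86 and class II molecules from the surface, stood at 36.7 ± 2.23. Adam17, a protease that sheds surface proteins, stood at 29.3 ± 3.17 and Spop, a ubiquitin ligase adaptor that acts on PD-L1, at 23.4 ± 1.20. Glmp, a lysosomal membrane protein for which no action on these ligands is given here, was the highest of the list at 78.4 ± 1.05. The lowest was Cmtm4, which stabilises PD-L1 at the surface, at 1.59 ± 0.205. In both lists 0 genes were called between replicates at 2-fold, beside 5.53% of all genes.

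Marker genes matched the macrophage label, and those of dendritic cells, which express many of the same ligands, were near 0. All 8 macrophage markers were detected, with a summed level of 4863 in replicate 1 and 5494 in replicate 2. Adgre1, which encodes F4/80, was called higher in replicate 2, at 358 and 706. Of 8 dendritic cell markers 0 were detected, with sums of 0.74 and 2.06 and Cd209a at 0 counts. Of 6 tested, Ccr7 and Flt3 were called higher in replicate 2, beside 5.53% of all genes called either way at 2-fold. Ccr7, a chemokine receptor of mature dendritic cells, had 92 and 259 counts, and Flt3 had 3 and 26. Zbtb46, Xcr1, Clec9a and Itgae were not called, at log2 ratios of 0.49, -0.09, 0.79 and -0.36. Of 6 B cell markers 2 were detected, Blnk at 48.0 ± 11.3 (n = 2) and Cd79b at 1.40 ± 0.467, with sums of 57.1 and 41.9, while Ms4a1 had 0 and 9 counts and Cd79a 0 and 3. Of 8 T cell markers 2 were detected, Cd28 and Cd4, with sums of 48.4 and 35.0. The part of these markers in the replicate differences of the ligand genes was not tested.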

How the data were processed

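Total RNA from the cytosol was measured in 2 libraries of 1 group. The labels give 1 µg of RNA per library and sizes of 250 to 400. The 8 genes and the related lists were chosen with earlier results of these data known. Each library has 3 tables: alignment to the transcriptome gave one of genes and one of transcripts, and the reads gave another of transcripts. The text deposited beside them names mm10 and GENCODE M21. The aligner and quantifiers, like strandedness, were not given in the sources used here.

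Expected counts are the authors' estimates for each gene or transcript without scaling for depth, per the file headers. Deposited TPM values sum to the same total in each table, transfer RNAs and spike-ins included. Abundant RNAs of any class therefore lower the TPM of all other genes without changing ratios within a library. FPKM, as deposited, divides by effective length and by mapped fragments. The deposited percent values divide a gene's TPM among its transcripts. The spread of an estimated count is the deposited posterior standard deviation, per the file headers. The gene tables hold 81881 features, of which 55536 are annotated genes. Transfer RNAs and spike-ins stayed out of tests and library sizes.

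Expected counts were rounded, library sizes were multiplied by the TMM factors of edgeR 4.0.16 (R 4.3.3), and a two-sided exact binomial test (SciPy 1.17.1) was run on every gene or transcript whose mean count reached 10. Calls needed a Benjamini-Hochberg adjusted p under 0.05 and at least 2-fold. The test was tried on simulated counts with known changes that held counting error only. Such counts cannot show how it behaves where cultures vary beyond counting. With 1 group of 2 libraries no spread between replicates can be fitted, so edgeR's exact test was run with assumed coefficients of variation of 0.1 and 0.2. Intervals are exact at 95%, and they and the floor of 3 counts cover counting error only. Depth was 64187219 and 49429864 expected counts in replicates 1 and 2, so replicate 1 has the smaller counting error. Named were the 8 genes, the 4 highest and 2 lowest genes by mean TPM of each of 7 related lists (part of which is printed), the receptors of the ligands, and transcripts that led or held at least 10% of a gene's TPM in both replicates of a table. Others are said to be chosen after their values were seen, or are members of a marker list or of a count that is spelled out. Of the list symbols 6 had no match. Single values of some marker genes are not reported here. Alternatives were FPKM, TPM rescaled to protein-coding genes, the read-based table, other pseudocounts, count and fold minimums, DESeq2 1.42.0 size factors and leaving out a replicate. Protein-coding transcripts only and a fold of 1.5 for transcripts were chosen after seeing the data.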

Additional observations from a re-analysis of the deposited data

How the results depend on the processing

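The count of detected ligand genes, 7 of 8, was 6 at a TPM minimum of 5, which Cd80 missed in replicate 2, and 7 under the other 6 alternatives tried (a minimum of 0.1, a count of at least 10, rescaled TPM, the read-based table and either replicate alone), and the leading transcript was the same for 8 of 8 genes under the 3 tried. Absolute levels depended on the unit: the median of the 8 genes, 34.2 in TPM, was 61.3 in FPKM, 120.6 after rescaling TPM over protein-coding genes alone and 19.2 in the read-based table. Of the 8 places in the order, 5 were kept with protein-coding transcripts only, where Cd83 moved to the fourth place, and in the read-based table and in replicate 1 alone Cd40 and Cd48 changed places. The count of genes called between replicates was 0 at 2-fold, 2 at 1.5-fold and 4 with no fold minimum, and was 0 under the other alternatives at 2-fold. For transcripts it was 2 at 2-fold, 9 of 20 at 1.5-fold, beside 27.8% of all transcripts, and 0 with edgeR and a coefficient of variation of 0.2. The ratio of Icosl turned from 0.044 to -0.0397 on log2(TPM + 1) and to -0.0436 on log2(TPM + 0.1). The ratios of Cd40, Cd83 and Cd80 stayed between -0.89 and -0.78, -0.74 and -0.64, and -0.57 and -0.47 over 6 scales, including DESeq2 size factors, which were added after seeing the data. Depth limits Pdcd1lg2 alone among the 8. No paired analysis was possible because the libraries form 1 group. Differences between 2 libraries have no check in a further replicate.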
